A study of Homo sapiens with 20 samples.

Results

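The transcripts described here are those that the deposited annotation types as nonsense_mediated_decay and that reached a mean of at least 1 TPM (transcripts per 1000000) over the 5 control exosome libraries or over the 5 control granule libraries. Of 251955 named transcripts, 21347 carry that type, and 1860 of these met the threshold. They belong to 1450 genes of 7815 that have at least 1 such transcript. The threshold was reached in both control groups by 745 members, in control exosomes alone by 618 and in control granules alone by 497. The study sequenced total RNA from exosomes, the small vesicles that cells release, and from cytoplasmic RNA granule cores, all isolated from HEK293, a human embryonic kidney cell line. The cells were either controls or HD-induced (HD, Huntington's disease). The labels do not say how HD was induced or what construct, if any, the controls held. There were 5 libraries in each of the 4 groups (control exosome, HD exosome, control granule and HD granule), which the study describes as biological replicates.

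Nonsense-mediated decay (NMD) is a cytoplasmic surveillance pathway that degrades mRNAs whose stop codon lies well upstream of an exon junction. The exon junction complex, left behind by splicing, marks such a stop as premature when the ribosome terminates there, and the helicase UPF1 and the kinase SMG1 then commit the RNA to decay. Many splicing regulators, among them the serine/arginine-rich (SR) proteins, produce transcripts of this kind through poison exons and so limit their own levels. The type is a prediction of the annotation from the position of the stop codon, more than 50 bases upstream of the last junction; that these RNAs were decayed was not measured. Transcripts of 1 gene share most of their sequence, so a level given for 1 of them is Salmon's estimate of how the reads divide, and the uncertainty of that division was not analysed here. Fewer vesicles or granules carrying an RNA and less of it in each cannot be told apart in these bulk libraries.

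The frames of the members that carried the main differences end in stretches that can be read directly. Below are the last 27 coding bases and, in capitals, the stop codon, 5′ to 3′ on the coding strand, from GENCODE release 29 on GRCh38.
SRSF1-206: gccttcgttgagttcgaggacccgcggTGA
SRSF1-204: tttgaccagaattggatacagtggtctTAA
SRSF7-208: cggcgaagaagaagcaggtatttatttTAA
TRA2B-205: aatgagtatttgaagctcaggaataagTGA
RBMX-204: aatggaaagatgacggtggatattccaTGA
RBMX-212: aatggaaagatgacggtggatattccaTGA
PFDN4-202: aaccttgaagctgatgaaaggaacacaTGA
MAD2L1-202: aagctatccaggatgaaatccgttcagTGA

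The SRSF1-206 stop lies at chr17:58006940-58006942 on the minus strand, in exon 1 of 4, with 3 junctions after it. Of the 355 bases of that exon, 37 are exon in no coding transcript of the gene. The SRSF1-204 stop, at chr17:58005747-58005749, is in exon 3 of 4 and is shared with a coding transcript of SRSF1, so this member differs by a junction after the stop. In SRSF7-208 the stop at chr2:38749516-38749518 (minus strand) lies in an exon of 1127 bases, of which 875 are exon in no coding transcript. TRA2B-205 ends its frame after 38 codons at chr3:185931772-185931774 (minus strand), in exon 2 of 10, at a stop that a coding transcript of TRA2B shares. The RBMX members share the stop at chrX:136876635-136876637 (minus strand), in exon 4 of 8, and differ behind it, with 1460 bases after the stop in RBMX-204 and 4498 in RBMX-212. PFDN4-202 stops at chr20:54224235-54224237 (plus strand) in an exon of 73 bases that no coding transcript holds, and MAD2L1-202 at chr4:120060925-120060927 (minus strand) within sequence that other transcripts read as coding.

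Structure could be read for the 1538 members (82.7%) that GENCODE 29 holds with the same versioned identifier, length and type. In 834 of them (54.2%) the stop fell within coding sequence of a coding transcript of the gene. In 445 (28.9%) it fell in sequence that no coding transcript holds as exon. A further 180 (11.7%) shared the stop with a coding transcript, 47 (3.06%) had it within an untranslated exon, and 32 (2.08%) had no stop codon or no coding transcript to compare. The median frame was 279 bases long, with 645 bases and 3 junctions behind the stop. In 312 of the 1538 (20.3%) the annotation marks the start of the frame as not found, so those frames are incomplete. The median length of the 1538 was 1089 bases, shorter than that of all members given below. A single junction followed the stop in 363 members (23.6%) and 3 or more in 848 (55.1%). Most genes contributed 1 member (1148 genes), 225 contributed 2 and 77 contributed 3 or more, up to 6 from WAC, a chromatin and autophagy regulator. Median length was 1300.5 bases (range 269 to 14261), against 1645 bases over all rows of the type. It was 1500.5 bases in members reaching the threshold in control exosomes alone, 1092 in granules alone and 1252 in both.

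Depth and a few libraries bear on every value below. Total estimated reads, in units of 1000000 (M), ranged from 8.99 to 15.6 M in control exosomes, 17.4 to 38.4 M in control granules and 26.96 to 35.8 M in HD granules. HD exosome depth was uneven: replicate 4 held 1074 reads and was left out of the tests, replicates 1, 3 and 5 held 12.1, 1.98 and 4.25 M, and in replicate 2 the share of reads on rows without a transcript identifier was 86.6%. Summed over the members, TPM was 686 in HD exosome 2 and 3320 to 9607 in the other 18 libraries used. Members listed at 0 numbered 365, 994, 1086 and 838 in HD exosomes 1, 2, 3 and 5, and 206 to 261 in HD granules. HD granule 3 stood apart from the other HD granules in many members, and counts are given with and without it. Of 6 HEK293 markers, 5 had a mean of at least 1 TPM in both exosome groups and HD granules and 3 in control granules. Markers of blood cells, which include globins, summed to 32.2 to 157 TPM in control exosomes and 53.2 to 3629 in HD exosomes against 8.50 to 57.5 in granules, and keratin markers to 0.844 to 154 TPM in exosomes against 0.107 to 0.885 in granules. The platelet gene PPBP was listed at 0 in all libraries used. The part of these markers in the results was not tested.

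In the control libraries, which chose the members, most levels were low. Median TPM was 1.49 in control exosomes and 1.34 in control granules, and 87 and 77 members reached 10 TPM. Just inside the threshold were MTMR2-223, IQGAP2-206 and TUT4-210 (higher control mean 1.001, 1.001 and 1.004 TPM), and just outside it ALG13-212 at 0.99996 TPM and RNF7-203 and AP3M2-216, both at 0.997 TPM. The highest level in control exosomes belonged to RPS3-218, from the gene of a small-subunit ribosomal protein, with 420, 428, 402, 454 and 457 TPM in the 5 libraries. In control granules it had 133, 82.6, 96.6, 199 and 141 TPM, all below the exosome range. The highest in control granules was RPL37A-202, of a large-subunit ribosomal protein, with 131, 92.6, 160, 211 and 274 TPM, against 18.2, 49.2, 30.4, 53.6 and 42.6 TPM in control exosomes. These ribosomal members held quite different parts of their genes: RPS3-218 made up 45.05% ± 2.21 (SD, n = 5) of the RPS3 TPM in control exosomes, and RPL37A-202 6.11% ± 1.92 of the RPL37A TPM. Also high in granules was PFDN4-202, of a prefoldin subunit that hands unfolded chains to a chaperonin, with 53.01, 31.7, 45.3, 49.4 and 84.8 TPM and 0 in every control exosome library. ACTG1-213, of cytoplasmic gamma-actin, had 169, 64.5, 17.9, 26.2 and 8.88 TPM in control exosomes and 0 in all 5 control granules, so its level varied widely among the exosome libraries.

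**Figure D1:**
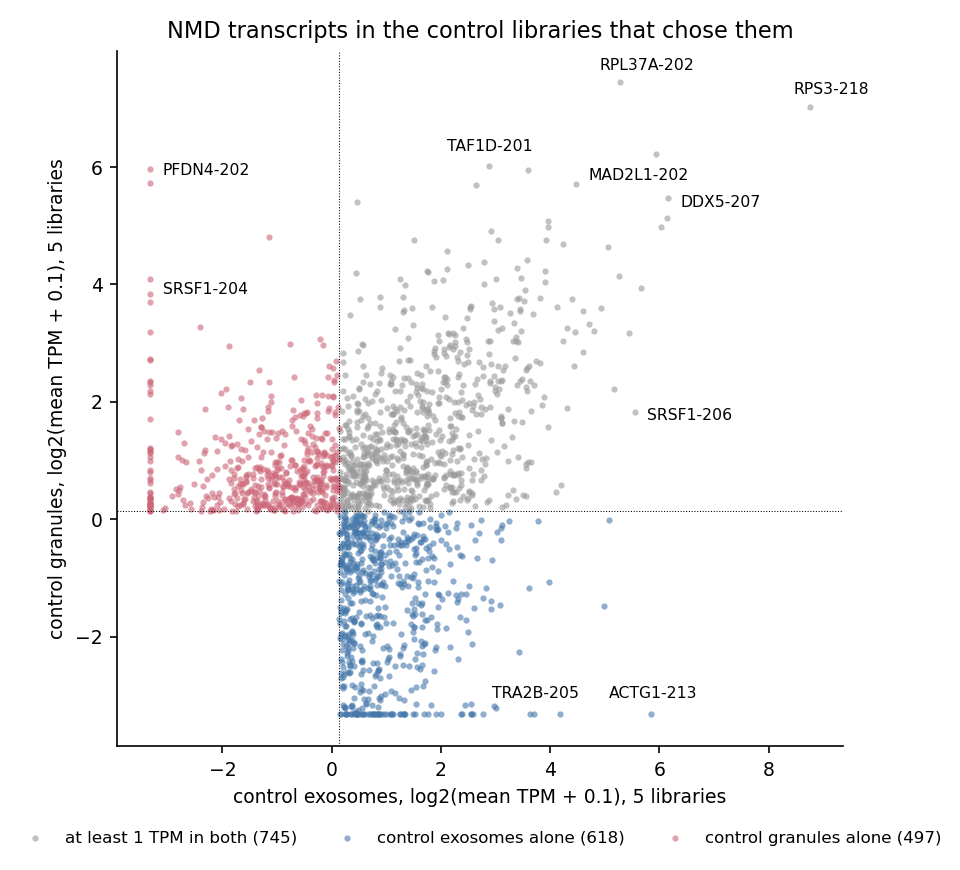
Each point is 1 of the 1860 NMD transcripts, placed by its mean level in control exosomes (x) and control granules (y), both as log2(TPM + 0.1). Dotted lines mark the threshold of 1 TPM that chose the members, and points on the left and lower edges are members listed at 0 in all 5 libraries of a group; 48 lie at 0 on the exosome axis and 59 on the granule axis.

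As a share of the gene's TPM, the median member held 12.01% in control exosomes, 9.45% in HD exosomes, 10.8% in control granules and 10.7% in HD granules. Members at 50% or more numbered 134, 120, 107 and 105 in those groups, and 72 reached it in both control groups. Among those 72 were MAD2L1-202, EIF3F-204, RPL22L1-204, MRPL22-204 and YIPF4-202. MAD2L1, the spindle checkpoint protein MAD2, had its NMD transcript at 67.3, 67.2, 82.9, 80.5 and 66.5% of the gene over the control exosome libraries, and 83.2, 80.3, 78.3, 80.9 and 87.2% over the granules. For EIF3F, a subunit of translation initiation factor eIF3, EIF3F-204 held 57.96, 70.6, 66.7, 65.1 and 69.0% in control exosomes and 75.7, 80.3, 81.7, 83.5 and 85.8% in control granules, with no overlap. At the other end, 478 members (25.7%) in control exosomes and 534 (28.7%) in control granules held under 5% of their gene. Zeros were common even where the gene was well covered: of 1447 members whose gene had at least 5 TPM in all 5 control exosomes, 645 were listed at 0 in 1 or more of them, and in control granules 244 of 1240 were.

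The HD libraries played no part in choosing the members, and granules and exosomes of HD-induced cells were compared with a test. The choice was not neutral to direction: 618 members qualified through control exosomes alone and 497 through control granules alone. The split into higher and lower may therefore partly reflect the choice. Levels here are CPM, reads per 1000000 after TMM scaling, tested over all transcripts with edgeR's quasi-likelihood test, with called meaning a Benjamini-Hochberg adjusted p under 0.05. Of 1656 members with enough reads to test, 135 were higher in HD granules (8.15%; 13.6% of all transcripts tested) and 17 were lower (1.03%; 0.694% of all, and 14.3% in either direction). The median log2 difference was 0.90 over the members and 1.06 over all transcripts. Upper-quartile scaling moved the median of all transcripts by -0.57 and the split to 110 higher and 43 lower. Over all 51851 transcripts tested, it moved the counts from 7058 higher and 360 lower to 5861 and 1195. Without HD granule 3 the counts were 244 and 38, and without HD exosome 1 they were 265 and 15. Leaving out HD granule 4 gave 62 and 16, and leaving out HD exosome 2 gave 98 and 28. With HD granule reads thinned to the HD exosome depth, 63 were higher. Counts over all transcripts in the thinned and left-out fits are not given, so a move of the members cannot be told from one of all transcripts. In 71 of the 135 higher members no read was assigned in the 4 HD exosome libraries (52.6%; 63.2% of all transcripts called higher). Such members could pass the filter on low counts only through the granules, so their direction was fixed by that filter.

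The change relative to the gene was tested as the transcript against the other transcripts of its gene. Of 1625 members tested, the share was higher in HD granules for 92 (5.66%; 6.82% of all transcripts tested) and lower for 18 (1.11%; 0.456% of all, and 7.28% in either direction). These became 115 and 34 without HD granule 3, and 32 and 7 without HD exosome 5, with the counts over all transcripts in those fits not given. Of the 135 members called higher in level, 74 (54.8%; 36.5% of all transcripts called higher) were also called higher in share. Of the same 135, 39 came from a gene that was itself higher (28.9%; 28.2% of all), 11 from a gene that was lower and 85 from a gene that was not called. Of the 17 called lower, 6 were lower in share (35.3%; 16.7% of all transcripts called lower) and 10 came from a gene called lower (58.8%; 77.8% of all). The percentages also called in share count transcripts without a share test as not called. That test covered 1625 of the 1656 members tested in level and 46500 of all 51851 transcripts, so the denominators differ in this respect. Members called both higher and lower within 1 gene were found in SRSF1 and RBMX for level, and in SRSF1, RBMX, DDX5 and SCFD1 for share. Of fits that left out 1 library, the lower share call of DDX5-203 was kept in 1 of 9 and the higher call of DDX5-238 in 7 of 9. For SCFD1, the lower call of SCFD1-213 was kept in 4 of 8 and the higher call of SCFD1-255 in 5 of 9.

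SRSF1, an SR protein that promotes splice site choice and limits its own mRNA, had NMD transcripts that moved in opposite directions. SRSF1-206 had 193, 155, 145 and 182 CPM in HD exosomes 1, 2, 3 and 5 and 20.7, 21.3, 15.5, 7.09 and 36.9 in the 5 HD granules. All exosome values lay above all granule values, and the log2 difference was -3.06 ± 0.45 (SE; adjusted p = 0.0172). Its share of the SRSF1 TPM was 40.7, 46.1, 50.5 and 46.02% in HD exosomes and 9.26, 6.82, 6.80, 2.16 and 13.8% in HD granules (log2 -2.03, adjusted p = 0.0263). The share call was lost in 6 of 9 fits that each left out 1 library, with adjusted p up to 0.0650; the level call was kept in 9 of 9. In the control libraries the share was 37.8 to 44.1% in exosomes and 4.07 to 14.7% in granules.

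SRSF1-204, chosen for display after its values were seen because it is the other called member of SRSF1, had 0, 0, 0 and 7.56 CPM in HD exosomes and 73.6, 147, 39.4, 217 and 123 in HD granules. The groups did not overlap (log2 5.93 ± 1.55, adjusted p = 0.0284). It held 27.4, 38.7, 14.5, 54.3 and 37.6% of the SRSF1 TPM in HD granules and at most 1.53% in HD exosomes, and the share was called (adjusted p = 0.000855) and kept in 9 of 9 fits that left out 1 library. The level call was lost in 5 of these 9, without HD exosomes 2 or 3 or HD granules 2, 4 or 5 (adjusted p up to 0.0824). In control exosomes SRSF1-204 was listed at 0 in all 5 libraries, and in control granules it held 26.3 to 37.5% of the gene. Exosomes and granules of both conditions thus differed in which of these transcripts Salmon assigned the SRSF1 reads to.

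RBMX, an RNA-binding protein of the hnRNP family, showed the same arrangement in transcripts with an identical stop codon. RBMX-204, with the shorter sequence behind the stop, had 41.5, 101, 48.1 and 97.4 CPM in HD exosomes and 0 in all 5 HD granules. That makes it at least 2134-fold lower in granules, taking the floor as 3 reads over the 5 granule libraries together (adjusted p = 0.0106). With no read in HD granules, RBMX-204 could pass the filter on low counts only through the exosomes, which fixed its direction. In control exosomes it was listed at 0 in 3 of 5 libraries and held 5.43 and 11.9% of the gene in the other 2. RBMX-212, with the longer one, had 19.2, 2.52, 17.6 and 5.32 CPM in HD exosomes and 176, 363, 63.2, 286 and 315 in HD granules (log2 4.42 ± 0.76, adjusted p = 0.0172). Its share was 0.425 to 3.496% in HD exosomes and 39.5, 62.1, 7.63, 59.9 and 57.6% in HD granules, with HD granule 3 lowest but still above every exosome. Both RBMX calls, in level and share, were kept in 9 of 9 fits that left out 1 library. The RBMX-212 level call was lost with the replicate number as a block in the edgeR model (adjusted p = 0.162). It was also lost with no filter on low counts (edgeR adjusted p = 0.0551).

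Members of other SR and SR-like genes differed in direction. SRSF7-208, of a splicing factor that also takes part in mRNA export, had 8.84, 13.6, 8.58 and 28.0 CPM in HD exosomes and 108, 178, 99.7, 213 and 205 in HD granules. Every granule exceeded every exosome library (log2 3.44 ± 0.50, adjusted p = 0.0172), and the mean share was 6.54% in HD exosomes and 41.2% in HD granules. The share call (adjusted p = 0.0489) was lost in 8 of 9 fits that left out 1 library, the exception being HD granule 3. TRA2B-205, of an SR-like activator of exon inclusion, went the other way, with 102, 20.7, 37.2 and 6.44 CPM in HD exosomes and 0, 0, 0, 0 and 0.228 in HD granules (adjusted p = 0.0172). Its share of TRA2B was 9.63 to 18.9% in control exosomes and 0 in all 5 control granules. SRSF2-204 had mean shares of 18.96, 11.3, 1.09 and 1.61% in control exosomes, HD exosomes, control granules and HD granules, but neither its level nor its share passed the HD test (adjusted p = 0.450 and 0.278).

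**Figure D2:**
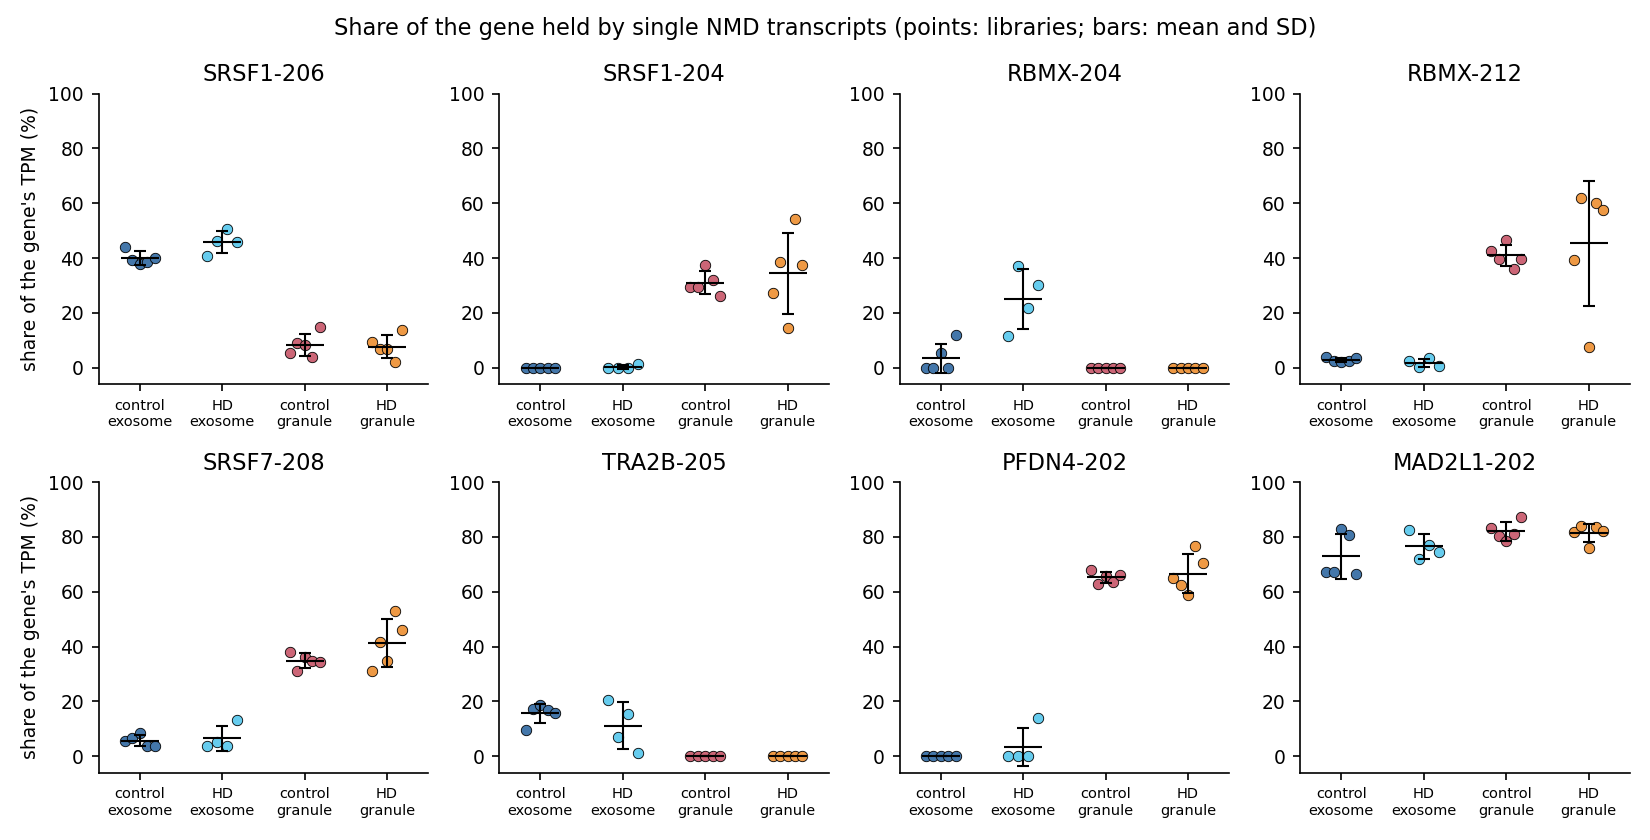
Share of the gene's TPM (y, percent) for 8 NMD transcripts in each library of the 4 groups; points are libraries and bars the mean and SD (n = 5, or 4 for HD exosomes). SRSF1-206 and TRA2B-205 are higher in the exosomes of both conditions by mean share, and RBMX-204 is high in HD exosomes and at 0 in 3 of 5 control exosomes. By mean share SRSF1-204, RBMX-212, SRSF7-208 and PFDN4-202 are higher in granules, and MAD2L1-202 holds over 66% of its gene in every library shown. The PFDN4-202 share was not called in HD, and the SRSF7-208 share call was lost in 8 of 9 fits that left out 1 library.

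The 8 members named for the largest fitted rise, among those with at least 1 TPM in an HD group and no overlap, had no read in the 4 HD exosomes, so only lower bounds can be given, with the floor at 3 reads over those libraries. All members in this paragraph with no HD exosome read could pass the filter on low counts only through the granules. Their direction was fixed by that filter, so the adjusted p values add no support for it. DDX5-238, of an RNA helicase that acts in splicing and transcription, had 59.9, 49.3, 44.95, 31.8 and 33.5 CPM in HD granules and was at least 200-fold higher there (adjusted p = 0.0132). FANCM-230, of the helicase that anchors the Fanconi anaemia complex on DNA, had 30.1, 26.3, 22.4, 25.02 and 28.1 in HD granules (at least 120-fold higher, adjusted p = 0.0172). In the control libraries FANCM-230 was also listed at 0 in all 5 exosomes and at 0.788 to 1.30 TPM in granules. TAF4B-202 (a TFIID subunit), OFD1-213 (a centriole protein), WAC-215, IPO11-205 (a nuclear import receptor), IGF2BP3-202 (an mRNA-binding protein) and EDEM3-203 (a mannosidase in disposal of misfolded glycoproteins) were at least 95.2-fold to 197-fold higher. Their levels varied more among HD granules, HD granule 3 being lowest in each of these 6. By share, NUP43-202 stood out among the members at 0 in HD exosomes: it held 51.2, 36.9, 24.1, 40.8 and 48.6% of NUP43, a nuclear pore gene, in HD granules (adjusted p = 0.0119). ME2-219 and MTRR-219, of a mitochondrial malic enzyme and methionine synthase reductase, held 14.5 to 31.2% and 8.14 to 25.6% of their genes in HD granules. The level calls of these 11 members were kept in 9 of 9 fits that left out 1 library. With the replicate number as a block in the edgeR model, only DDX5-238 and TAF4B-202 stayed called (adjusted p = 0.0369 and 0.0491). With no filter on low counts, WAC-215, IPO11-205, IGF2BP3-202, EDEM3-203, NUP43-202 and MTRR-219 were not called (edgeR adjusted p 0.0546 to 0.0794). In control exosomes every one of these members except FANCM-230 had reads, from 22 for NUP43-202 to 510 for ME2-219 over the 5 libraries. Mean CPM in control exosomes and granules was 3.91 and 46.7 for DDX5-238, and 1.86 and 27.2 for OFD1-213. It was 8.65 and 26.3 for TAF4B-202, and 7.08 and 16.5 for IPO11-205. The fold bounds above are therefore for the HD libraries alone. ME2-219 alone had the higher mean in control exosomes, with 0, 3.32, 2.51, 1.42 and 3.98 TPM there, against 0.904 to 1.19 TPM in control granules.

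Of the 17 members called lower in HD granules, 3 had no read there. Besides RBMX-204 these were ECHDC1-205, of a cytosolic enzyme that removes ethylmalonyl-CoA, and GTPBP3-205, of a mitochondrial tRNA-modifying GTPase. These 3 could pass the filter on low counts only through the exosomes. Their direction was fixed by that filter, so the adjusted p values add no support for it. ECHDC1-205 had 18.7, 13.6, 11.4 and 21.3 CPM in HD exosomes and was at least 481-fold lower in granules (adjusted p = 0.0172). GTPBP3-205 had 13.3, 3.03, 18.6 and 8.12 and was at least 319-fold lower (adjusted p = 0.0172). In control granules, though, GTPBP3-205 reached 1.27, 3.71 and 2.78 TPM in 3 libraries and was listed at 0 in the other 2. SNF8-217, of an ESCRT-II subunit that sorts cargo into multivesicular bodies, had 42.01, 21.7, 26.2 and 32.2 CPM in HD exosomes and 4.81, 4.14, 10.5, 1.95 and 3.19 in HD granules (log2 -2.63 ± 0.69, adjusted p = 0.0288). TAF15-204, of an RNA-binding protein, had 38.7, 31.8, 10.5 and 34.7 against 3.91, 3.08, 7.04, 3.08 and 6.55 (log2 -2.61 ± 0.68, adjusted p = 0.0282). In both the compartments did not overlap, and in neither did the share of the gene pass (adjusted p = 0.577 and 0.416). Their calls were lost without HD granule 1 or 2 (adjusted p 0.0531 and 0.0596 for SNF8-217, 0.0669 and 0.0751 for TAF15-204), for SNF8-217 also without HD granule 5 (0.0537), and for TAF15-204 also without HD exosome 5 (0.0517) or HD granule 4 (0.0532).

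Other members rose in level without a called change in share. MAD2L1-202 had 59.2, 57.99, 13.8 and 55.1 CPM in HD exosomes and 216, 374, 53.3, 292 and 342 in HD granules (log2 2.46 ± 0.61, adjusted p = 0.0235), HD granule 3 lying within the exosome range. Its share stayed at 72.1 to 82.6% in HD exosomes and 76.0 to 83.8% in HD granules (adjusted p = 0.943), and the level call was lost without HD exosomes 2 or 5 or HD granules 4 or 5 (adjusted p 0.0539 to 0.0704). TAF1D-201, from a gene of a TATA-binding protein associated factor that also hosts small nucleolar RNAs, had 46.7, 107, 23.4 and 55.4 in HD exosomes and 594, 957, 96.1, 1049 and 1291 in HD granules (log2 3.78 ± 0.73, adjusted p = 0.0172). Its share was 18.9% ± 11.9 and 23.03% ± 2.99 (SD, n = 4 and 5; adjusted p = 1.00). Other TAF1D members, TAF1D-202, TAF1D-205 and TAF1D-221, were called lower in share (log2 -3.65, -3.70 and -2.69). Those share calls were lost in 4, 2 and 8 of 9 fits that left out 1 library. RPL22L1-204, of a ribosomal protein paralog, was higher by 3.70 ± 0.78 (log2; adjusted p = 0.0172) and its share did not pass (adjusted p = 0.963). PFDN4-202 had 0, 0, 0 and 8.68 CPM in HD exosomes and 78.1, 247, 14.2, 456 and 407 in HD granules (log2 6.73 ± 1.79, adjusted p = 0.0305). That call was lost in 5 of 9 fits that left out 1 library, HD exosomes 2 or 3 or HD granules 2, 4 or 5 (adjusted p up to 0.0812). RPS3-218, the highest of all, did not pass: it had 1776, 438, 555 and 776 in HD exosomes and 331, 313, 502, 161 and 312 in HD granules (log2 -1.45 ± 0.44, adjusted p = 0.0527).

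Gene lists place these members in their pathways, again beside 13.6% of all transcripts called higher and 0.694% lower in level. In share, 6.82% of all transcripts were called higher and 0.456% lower. SR proteins and splicing kinases had 22 members from 15 genes, 3 higher and 2 lower in level, 2 and 2 in share, with a median log2 of 0.04. The hnRNPs and other splicing regulators had 48 members, of which 42 were tested, 5 higher and 2 lower in level and 4 and 2 in share. In the core spliceosome none of 22 members tested passed in level and 1 was lower in share: DDX23-223, of the U5 helicase, with mean shares of 46.1, 40.4, 3.22 and 1.49% in control exosomes, HD exosomes, control granules and HD granules (adjusted p = 0.0496). That call was lost without any 1 of the 8 HD libraries other than HD granule 3 (adjusted p up to 0.134). Protein-coding hosts of small nucleolar RNAs had 28 members tested, 3 higher and 0 lower in level and 1 and 3 in share. Aminoacyl-tRNA synthetases had 16, with 4 higher and 0 lower in level and 3 and 1 in share. Cytosolic ribosomal proteins had 32, with 1 and 1 in level and 0 and 0 in share. The lists that follow are given by level. Respiratory chain genes had 3 of 18 higher, zinc finger genes 2 of 13 and translation factors 2 of 25, with none lower. Proteasome genes had 1 higher and 1 lower of 13, chaperones 1 higher of 12 and mitochondrial ribosomal proteins 0 of 16. In share, 2 proteasome, 2 chaperone, 1 zinc finger and 1 translation factor member were higher, and none in these lists was lower. The NMD machinery itself gave 5 members from 4 genes (ETF1-207, MAGOHB-208, MAGOHB-209, SMG1-213 and CASC3-204), none called in level or share. RNA decay enzymes gave 12, with 1 higher in level and 1 in share.

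Medians by the kind of stop and by length are given beside 13.6% of all transcripts called higher, 0.694% lower and a median of 1.06. Members whose stop lay in sequence that no coding transcript holds had a median log2 of 1.21 (47 higher and 2 lower of 417 tested). Those with the stop within coding sequence of another transcript had 0.64 (41 and 8 of 721), and those sharing a coding transcript's stop 0.60 (11 and 1 of 164). A stop within an untranslated exon went with 0.92 (3 and 0 of 45), and members with no stop codon or no coding transcript had 0.02 (2 and 1 of 31). By length, the members' medians were 1.40 up to 600 bases, 1.12 from 601 to 1000, 0.40 from 1001 to 2000, 0.58 from 2001 to 4000 and 1.22 above 4000. All transcripts had 1.76, 1.40, 0.83, 0.84 and 1.00 in the same bins, so that the members were below the rest in every bin but the longest. These medians carry no test.

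The control libraries, given here as a description because they chose the members, had 256 higher and 290 lower of 1664 members in level (19.2% and 13.7% of all transcripts, 32.9% together) and 108 higher and 90 lower of 1632 in share (9.1% and 2.81% of all, 11.9% together). Control and HD libraries are disjoint in these comparisons. Of 253 members called higher in control granules and tested in HD, 252 had the same sign there (99.6%; 99.2% of all transcripts so called) and 61 were called again (24.1%; 33.3% of all). Of 255 called lower, 229 had the same sign (89.8%; 85.5% of all) and 13 were called (5.10%; 4.82% of all). In share, 101 of 103 higher (98.1%; 95.4%) and 59 of 67 lower (88.1%; 95.3%) kept the sign. No member was called in opposite directions in the control and HD comparisons.

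**Figure D3:**
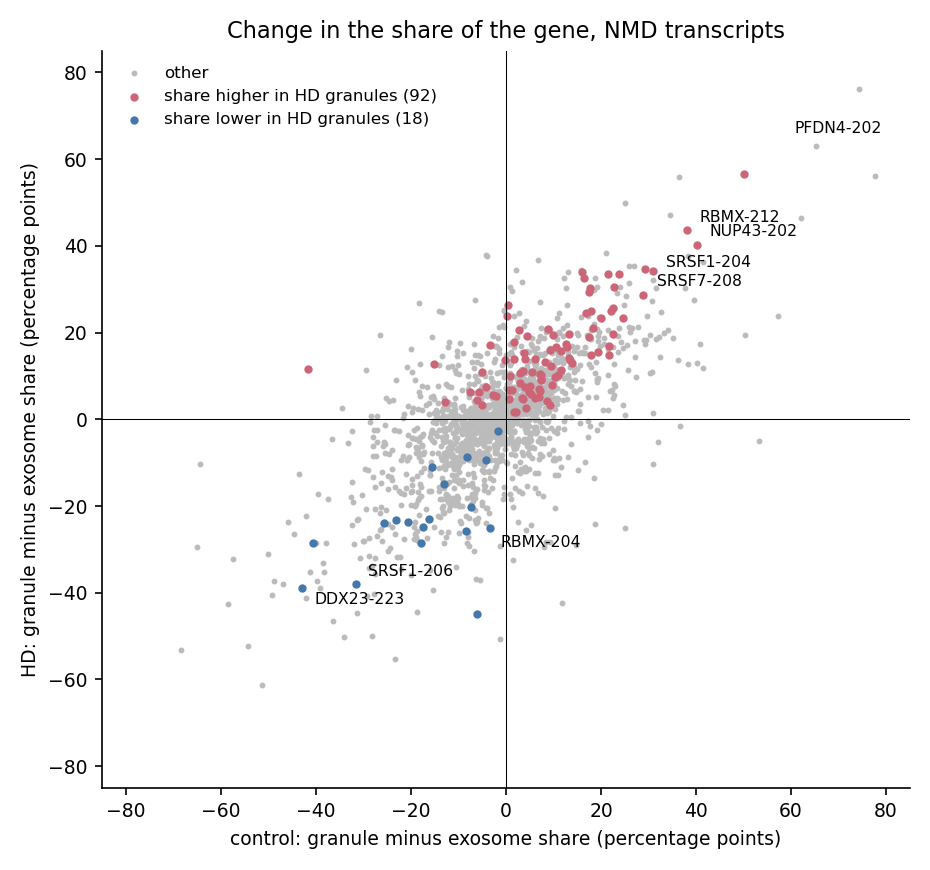
Granule minus exosome share of the gene's TPM (percentage points) in control libraries (x, means of 5 and 5) and HD libraries (y, means of 5 and 4), 1 point for each NMD transcript. The 92 members whose share was called higher in HD granules are red and the 18 called lower are blue; SRSF1-206 lies far down on both axes and RBMX-212 far up on both.

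Over all 21347 rows of the type, with no threshold on level, the share was taken of the reads on genes with a coding transcript. NMD rows took 3.60% ± 0.0844 (SD, n = 5) of these reads in control exosomes and 4.01% ± 0.187 in control granules, with no overlap (difference 0.416 percentage points, exact 2-sided permutation p = 0.00794, adjusted 0.0317 over 12 tests). In HD cells the shares were 4.02% ± 0.369 (n = 4) and 3.96% ± 0.498 (n = 5; exact permutation p = 0.833). As a share of TPM, which divides by length, the control difference turned round, with 3.75% ± 0.0729 in exosomes and 3.11% ± 0.145 in granules (exact permutation p = 0.00794, adjusted 0.0238). The HD shares of TPM were 3.89% ± 0.276 and 2.89% ± 0.316 (exact permutation p = 0.00794, adjusted 0.0238), again with exosomes above granules. The TPM-weighted mean length of protein-coding transcripts was 1790 bases in control exosomes and 1356 in control granules, and that of NMD transcripts 1666 and 1677. Retained-intron transcripts took more of the reads in granules, from 3.47% ± 0.173 to 8.57% ± 0.615 of reads in control cells (exact permutation p = 0.00794, adjusted 0.0317) and from 3.91% ± 0.591 to 8.24% ± 1.41 in HD (exact permutation p = 0.0159, adjusted 0.0476). By TPM the retained-intron share was 5.46% ± 0.226 and 7.97% ± 0.655 in control exosomes and granules (exact permutation p = 0.00794, adjusted 0.0238). In HD it was 6.11% ± 0.777 and 7.17% ± 0.847 and did not pass (exact permutation p = 0.103, adjusted 0.229). The smallest p that these exact tests allow is 0.00794.

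**Figure D4:**
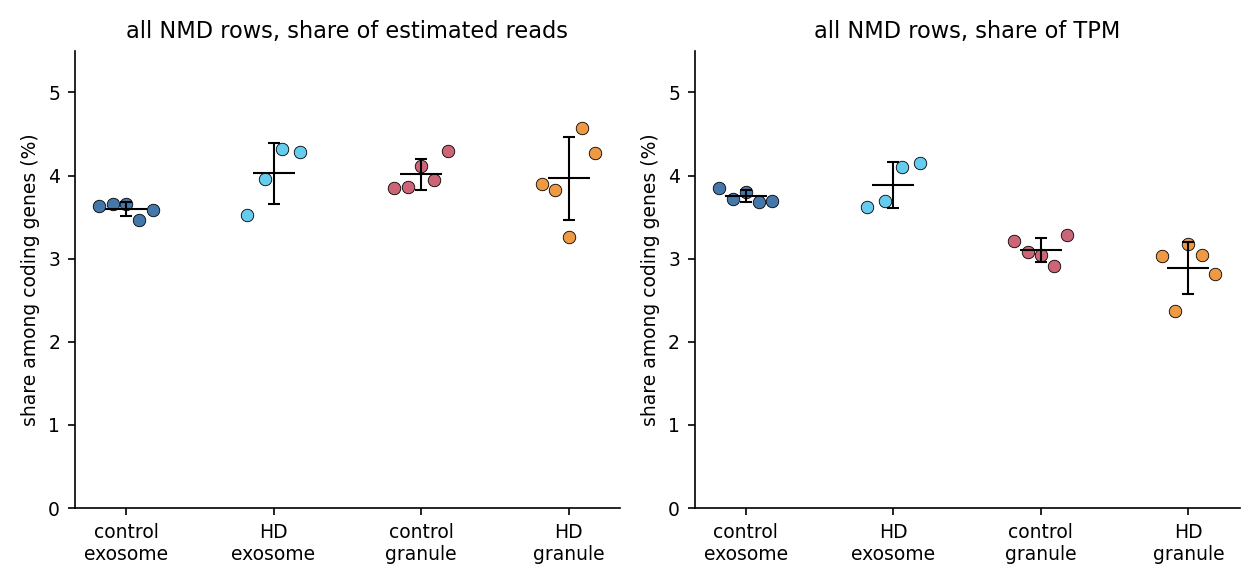
Share of all NMD rows among the reads (left) and the TPM (right) of genes with a coding transcript, in percent from 0; points are libraries, bars the mean and SD (n = 5, or 4 for HD exosomes). By reads control granules lie above control exosomes, and by TPM both granule groups lie below both exosome groups.

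HD-induced against control libraries of the same compartment gave no called member. These comparisons share their libraries with those of the compartments. In granules, 1139 of the 1363 members chosen by control exosomes were tested and 0 were higher or lower (0.0% of all transcripts called in either direction). At an unadjusted p under 0.05 there were 11 (0.966%; 0.991% of all), and DESeq2 called 1. DPH2-209, of an enzyme of diphthamide synthesis, had the smallest p of these members, with 0 reads in all 5 control granules and 4.47, 8.18, 6.58, 3.42 and 6.26 CPM in HD granules (adjusted p = 0.284). In exosomes, 887 of the 1242 members chosen by control granules were tested and 0 passed (0.0% of all in either direction). There were 17 at an unadjusted p under 0.05 (1.92%; 3.16% of all), DESeq2 called 10 lower, and leaving out HD exosome 1 gave 2 higher and 8 lower. The counts over all transcripts under DESeq2, in either compartment, and without HD exosome 1 are not given. TAF4B-202 had 3.57, 15.7, 5.36, 6.88 and 11.9 CPM in control exosomes and 0 in the 4 HD exosomes (adjusted p = 0.282). On named transcripts HD exosome 1 held 7.41 M reads, within the 5.30 to 9.04 M of control exosomes, and HD exosomes 2, 3 and 5 held 1.94, 1.33 and 3.00 M. The share of reads on NMD rows differed by 0.425 percentage points between HD and control exosomes (exact permutation p = 0.0476, adjusted 0.0952) and by -0.0499 between HD and control granules (exact permutation p = 0.849).

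The genes of the pathway were compared between the compartments as well. All 25 listed NMD and exon junction genes were tested, as sums over their transcripts. In HD cells 2 were higher in granules and 4 lower (10.2% and 7.85% of all genes), and the median log2 was -0.35 against 0.11 for all genes. Without HD granule 3 these counts were 4 and 10, without HD exosome 2 they were 0 and 2, and without HD granule 4 they were 0 and 3. The counts over all genes in those fits are not given. In control cells 5 were higher and 14 lower (30.0% and 32.5% of all genes; median -0.95 against -0.02). MAGOH, a core subunit of the exon junction complex, was higher in HD granules, with 33.2, 69.5, 42.8 and 75.8 CPM in exosomes and 144, 433, 33.0, 522 and 483 in granules (log2 2.55 ± 0.68, adjusted p = 0.0262), HD granule 3 lying below the exosomes. Its partner in the same complex, the helicase EIF4A3, was lower, at 196 ± 11.1 in HD exosomes and 107 ± 16.3 in HD granules (SD, n = 4 and 5; log2 -0.87 ± 0.19, adjusted p = 0.0119). RUVBL1, an ATPase that acts with SMG1, had 154, 181, 168 and 138 in HD exosomes and 54.4, 67.6, 70.1, 58.9 and 56.2 in HD granules, with no overlap (log2 -1.38 ± 0.19, adjusted p = 0.00224). ETF1, the release factor eRF1, was lower too, 492.6 ± 103 against 249 ± 63.3 (log2 -0.98 ± 0.25, adjusted p = 0.0223). In control cells the smallest p belonged to RUVBL2 (227 ± 38.5 in exosomes, 26.8 ± 6.79 in granules, log2 -3.08 ± 0.19, adjusted p = 1.78e-07), MAGOH (log2 1.99 ± 0.14, adjusted p = 3.19e-07), the splicing activator RNPS1 (log2 -1.76 ± 0.15, adjusted p = 1.85e-06) and the helicase DHX34 (log2 -1.85 ± 0.20, adjusted p = 8.35e-06). UPF1 was lower in control granules (log2 -1.20 ± 0.25, adjusted p = 0.0012) and had -0.18 ± 0.53 in HD (adjusted p = 0.841). Between HD and control libraries none of the 25 passed in granules (0.0% of all genes in either direction; 0 at an unadjusted p under 0.05) or in exosomes (0.00748% of all genes higher and 0.0% lower; 3 at an unadjusted p under 0.05), and DESeq2 called none in either.

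**Figure D5:**
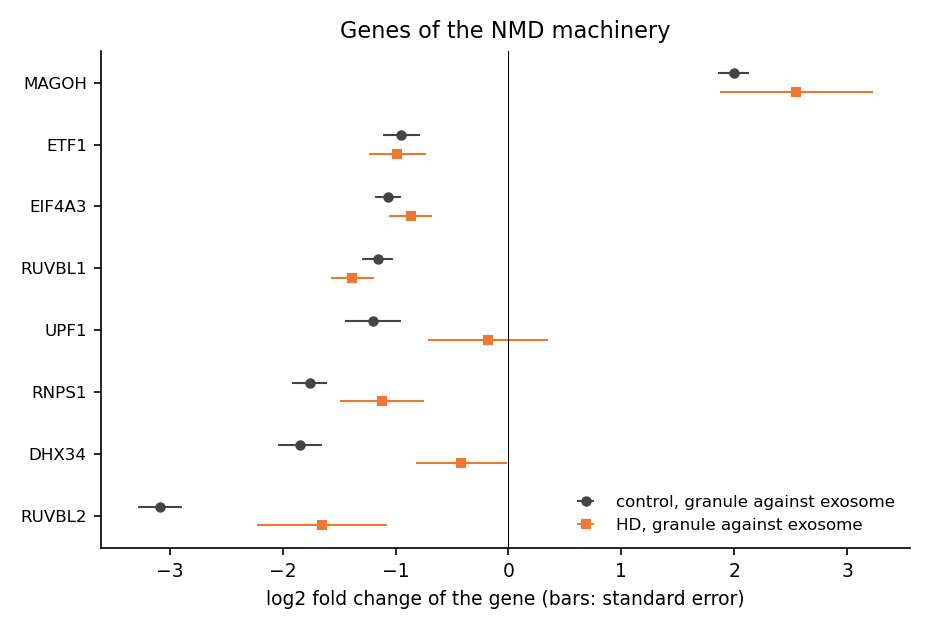
Log2 fold change, granule against exosome, of the 8 genes of the NMD machinery that the text gives with values, in control cells (circles) and HD cells (squares), with the standard error as bars. MAGOH lies to the right in both, and RUVBL2, RNPS1, RUVBL1 and EIF4A3 lie to the left in both.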

How the data were processed

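RNA of 20 HEK293 exosome and granule libraries, 5 in each group, was sequenced by the study. Per the submitters' processing notes the tools were Trimmomatic, cutadapt, FastQC and Salmon and the build GRCh38.p14, with neither tool versions nor an annotation release stated there. The deposited files give for each transcript the expected count that Salmon estimated and TPM, which the authors' quantification scales by length and depth. Where nothing says what separated the replicates beyond the term biological, p-values measure only the spread between these libraries.

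The members, gene lists and tests were chosen with earlier results of these data known. Expected counts were rounded to whole numbers, filtered with filterByExpr, scaled with TMM and tested over all transcripts with edgeR 4.0.16 (quasi-likelihood, robust; R 4.3.3) and Benjamini-Hochberg adjustment at 0.05. The share of a gene was tested with diffSpliceDGE. HD exosome replicate 4 was left out of the tests. The SE is the log2 difference divided by the square root of F. Class shares were compared with exact 2-sided permutation tests. Members were named by rule: the highest levels in each control group, the largest called and non-overlapping differences by direction, the highest with at least 50% of the gene, up to 3 in each list, and those at the threshold; SRSF1-204 and RBMX-212 were added after their values were seen. Alternatives included DESeq2 1.42.0, limma 3.58.1 (voom and diffSplice), other scalings, no filter, a replicate block, other TPM thresholds and leaving out libraries. The edgeR step was tested on simulated data. Structure came from GENCODE 29, matched by versioned identifier, length and type, and figures were drawn with Python 3.11.15.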

Additional observations from a re-analysis of the deposited data

Results flagged for a closer look

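Among 312 groups of libraries looked at, each 1 named transcript in 1 group, a single library stood apart from the others in 48 by Dixon's criterion. For independent groups of normally distributed values, chance sets about 1 in 20 apart. Some groups here, such as TRA2B-205 in HD granules, are mostly zeros, and the groups share libraries, so that rate does not apply directly. All values here are TPM. HD granule 3 was the library set apart in 21 of the 48, and no explanation was tested. None of the 12 groups of class shares had such a library. In HD granule 3 the level was 441 for RPS3-218, 125 for ACTG1-213, 88.5 for EIF3F-204, 2.01 for FANCM-230, 10.6 for SNF8-217 and 5.68 for TAF15-204. It was also 4.82 for ME2-219, 3.46 for MTRR-219, 1.78 for DDX23-223, 11.6 for EXOSC2-226, 4.32 for DIS3-204 and 14.2 for SRSF2-204. It was also 33.1 for DDX5-218, 123 for RPS3-216, 25.9 for EIF4A2-202, 10.9 for PSMG1-203, 5.02 for PSMD9-204 and 1.84 for ZNF585B-201. It was also 1.7 for DPH2-209, 5.53 for PRIM1-210 and 33.7 for ATP2A2-203. In HD exosome 1 the level was 45.03 for RPL37A-202, 4.34 for PSMB3-212, 0.373 for ZNF207-213 and 2.9 for TLCD3A-206. In HD exosome 5 the level was 9.62 for PFDN4-202, 0.339 for MTMR2-223, 0.938 for IQGAP2-206 and 10.1 for TUT4-210. In control granule 2 the level was 0.692 for OFD1-213, 0.904 for ME2-219 and 8.03 for DNAJC19-210. In HD exosome 2 the level was 3.88 for COX6C-206 and 0.711 for EXOSC2-226. In HD granule 5 the level was 0.0253 for TRA2B-205 and 0.0164 for NARS1-204. In control exosome 1 the level was 0.494 for DDX5-238 and 3.13 for IPO11-205. In control exosome 4 the level was 0.591 for IGF2BP3-202 and 0.859 for EDEM3-203. In control exosome 5 the level was 24.9 for RPL35A-202 and 29.97 for PSMG1-203. In control granule 5 the level was 63.2 for HNRNPA1-205 and 3.91 for PRIM1-210. In HD exosome 3 the level was 11.6 for IARS1-236. In HD granule 4 the level was 0.44 for ETF1-207. In control exosome 2 the level was 4.00 for MAGOHB-208. In control granule 1 the level was 1.24 for DDX23-223.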

How the results depend on the processing

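For HD granules against HD exosomes, members higher and lower in level (135 and 17) became 352 and 94 with DESeq2, 452 and 73 with limma voom, 8 and 4 with no filter, and 221 and 56 without HD exosomes 2 and 4 and HD granule 3. Thinning HD granules to HD exosome depth gave 63 higher, and TPM thresholds of 0.5 and 2 gave 267 and 62 higher. A TPM threshold changes only which transcripts are members, so the share over all transcripts stays at 13.6%. The numbers of members tested at those thresholds are not given, so these counts cannot be set against that share. The lower count was 26 with RLE scaling, 43 with upper-quartile scaling and 4 with all 5 HD exosomes. Over all transcripts it was 671 with RLE scaling and 1195 with upper-quartile scaling, against 360. For the other settings of this section, TPM thresholds aside, the counts over all transcripts are not given. Leaving out 1 library gave 62 to 265 higher and 7 to 38 lower. For shares (92 and 18), all 5 HD exosomes gave 59 higher, limma diffSplice 105 lower, no filter 50 lower and leaving out the 3 doubtful libraries 44 lower; leaving out 1 library gave 32 to 115 higher and 5 to 34 lower.

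Whether replicate numbers pair the samples was not settled. Of 18 checks, each 1 number in 1 of the 4 comparisons, 5 had the best correlation with the same number (r from -0.0957 to 0.244). Granules against exosomes gave 1 of 4 in HD cells and 1 of 5 in control cells, too few to exclude pairing. With a replicate block the counts were 11 higher and 3 lower in level, 13 and 5 in share, and 1 NMD factor gene higher; 22 of 73 named calls kept their side of the threshold.

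In control cells, members higher in level (256) became 430 with DESeq2, 485 with voom and 165 at a threshold of 2 TPM, and leaving out 1 library gave 187 to 264 higher and 264 to 315 lower. The threshold of 2 TPM changes only which transcripts are members, and the share over all transcripts stays at 19.2%. Shares became 292 higher and 312 lower with diffSplice, and 71 to 116 higher and 83 to 109 lower without 1 library. Between HD and control granules DESeq2 called 1 member higher. Between HD and control exosomes DESeq2 called 10 lower, no filter gave 4 higher and 2 lower, and leaving out 1 library gave 0 to 2 higher and 0 to 8 lower. The class share difference in HD (-0.0597) was -1.002 by TPM and 0.422 over all rows, and -0.225 to 0.117 without 1 library, turning positive without HD exosome 3 (0.0400), HD exosome 5 (0.0274) or HD granule 3 (0.117). In control cells (0.416) it was -0.645 by TPM, 0.281 over all rows and 0.346 to 0.456 without 1 library. Between granules (-0.0499) it was 0.173 over all rows, and -0.203 to 0.127 without 1 library, positive without control granule 5 (0.0198) or HD granule 3 (0.127). Between exosomes (0.425) leaving out 1 library gave 0.326 to 0.591. NMD factor genes in HD (2 and 4) were 1 higher with no filter, 7 lower with DESeq2 and 1 lower with all 5 HD exosomes, and 0 to 4 higher and 2 to 10 lower without 1 library; between exosomes no filter gave 1 lower. Apart from fewer samples or genes, the cause was not tested. No call of a named member reversed. Depth limits HD exosomes 2, 3 and 5 most, where a listed 0 does not show absence. The thinning, upper-quartile and TMMwsp settings were chosen after seeing the data.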
